A study of Xenopus laevis with 6 samples.

Results

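Pancreas buds were compared with stomach buds of Xenopus laevis, the African clawed frog, at stage 42, when the tadpole swims and its dorsal and ventral pancreas rudiments are already 1 organ. The comparison used 4 of the 6 arrays of the study, chosen by their titles: 2 of embryonic pancreas and 2 of embryonic stomach. Each array was hybridised with biotin-labelled total RNA on the Affymetrix Xenopus laevis genome array, a chip with a set of short probes for each transcript. The labels give the embryos as of mixed sex and name no strain, genotype or treatment for either organ. The study's design text states that the buds held mesoderm beside endoderm and that tissue was isolated on 2 independent occasions; replicates 1 and 2 below stand for these isolations, and each held both organs. How many embryos went into an isolation is unknown here. The study searched for genes specific to the developing pancreas; the comparison with the stomach, an adjoining gut organ, was read here in both directions across all genes.

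The pancreas is built mainly of acinar cells, which synthesise digestive enzymes on an extended rough endoplasmic reticulum (ER) and store them in granules, and of endocrine cells that release insulin and other hormones. The stomach has an epithelium of acid- and protease-producing gland cells and of mucus-producing surface cells, inside a wall of smooth muscle with its own neurons, and ciliated cells are known from the lining of the tadpole foregut. Both organs arise from neighbouring parts of the same gut tube, and transcription factors and hedgehog signals divide their territories. Xenopus laevis is an allotetraploid, so many genes have an L copy and an S copy (homeologs) on the long and short chromosomes of a pair, and each copy is treated as a gene of its own here.

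The deposited table held 15611 rows, of which 120 were controls and 15491 were probe sets of transcripts. A single gene symbol belonged to 9304 probe sets, and these stood for 7531 genes. The median intensity was 100 on every array, the 4 arrays spanned intensities from 0.105 to 23202, and between 12.2% and 13.7% of values per array fell under 16. Across probe sets, log2 intensities correlated at Pearson r = 0.955 between the pancreas arrays and 0.952 between the stomach arrays, and at 0.877 to 0.904 between arrays of different organs. Precision is limited by the number of arrays. For each gene the intensities of replicate 1 and replicate 2 are given in that order, so n = 2 for every organ value. The log2 difference is pancreas minus stomach, and its standard error (SE) comes from the limma fit. A gene is called where the Benjamini-Hochberg adjusted p of limma over all 15491 probe sets was under 0.05.

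In that fit 556 probe sets were higher in pancreas, which is 3.59% of those tested, and 680 were higher in stomach, which is 4.39%. Of these, 295 (1.9%) and 485 (3.13%) differed by over 3-fold. With the isolation as a block (replicate block) 618 (3.99%) and 671 (4.33%) were called. Differences in favour of the stomach were larger: the median called probe set differed 3.1-fold in the pancreas direction and 4.5-fold in the stomach direction, and 69 against 143 differed by over 10-fold. Counted by gene, 332 genes (4.41%) were higher in pancreas and 369 (4.9%) in stomach, of which 182 (2.42% of genes) and 270 (3.59%) differed by over 3-fold; with the block the gene counts were 379 (5.03%) and 375 (4.98%). The calls depend on all 4 arrays. Without pancreas replicate 1, or without stomach replicate 1, limma called 0 probe sets, although 1396 and 1568 still had an unadjusted p under 0.05 in the pancreas direction and 1423 and 1247 in the stomach direction. Without pancreas replicate 2 it called 75 and 136, and without stomach replicate 2 it called 74 and 122, higher in pancreas and in stomach respectively. The same holds for every gene and list count below: each is 0 without either replicate 1 array. Each list count is to be read beside the 4.41% and 4.9% of all genes called in the pancreas and stomach directions. The smallest p an exact permutation test can give for 2 arrays of each organ is 0.333, which is why every gene is judged by the fit across all probe sets. Over all genes the median log2 difference was 0.12, a small excess in pancreas, and after quantile normalization it was 0.06. Of all 7531 genes 4310 had a positive log2 difference and 3221 a negative one. After quantile normalization these counts were 4059 and 3472. Each sign count of a list below is to be read beside them.

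**Figure D1:**
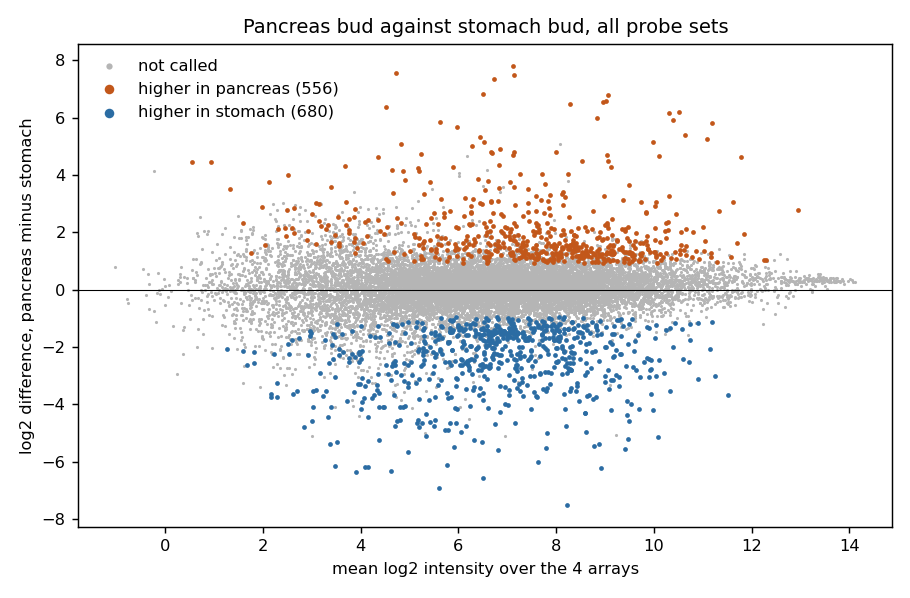
Each point is 1 of 15491 probe sets, with its mean log2 intensity over the 4 arrays on the horizontal axis and its log2 difference, pancreas minus stomach, on the vertical axis. Orange marks the 556 probe sets called higher in pancreas, blue the 680 called higher in stomach and grey the rest; the blue points reach large differences over a wide range of intensities.

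The difference was measured separately within each isolation. All 556 and all 680 called probe sets had arrays that did not overlap between the organs and pointed the same way in both isolations, and 239 and 424 of them differed by over 3-fold in each. This is a property of the calls, since the fit favours differences that recur, so a lack of overlap in a called gene is a description and no further support. A reading that does not use the fit starts from 1 isolation alone. Of 796 probe sets over 3-fold higher in pancreas in isolation 1, 84.0% had the same direction in isolation 2 and 39.4% were again over 3-fold, while 34 were over 3-fold the other way. Of 1135 over 3-fold higher in stomach in isolation 1, 85.9% had the same direction in isolation 2 and 48.0% were again over 3-fold. Over all probe sets, 74.9% had the same sign in both isolations.

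Defining markers of each organ were read first, as a check of the labels. Of 8 measured genes for exocrine enzymes (copies of cpa1, cpb1, prss1, ctrb1 and cela1), 7 were higher in pancreas, and the eighth, cela1.2.L, had values of 144 and 213 in pancreas against 32.4 and 71.4 in stomach (adjusted p = 0.169). Both insulin genes were higher in pancreas, whereas gcg.L, sst.1.L, neurod1.L and pax6.L were not called in either direction. Of 4 measured stomach epithelium genes, atp4b.S, ctse.S and sox2.L were higher in stomach. The remaining copy, ctse.L, had values of 33.7 and 323 in pancreas against 3564 and 3379 in stomach and missed the threshold (adjusted p = 0.0516). All 6 measured smooth muscle markers, copies of acta2, myh11, tagln and des, were higher in stomach. No probe set carried the symbol ptf1a, amy2a, pdx1, isl1, atp4a, pga5, pgc or gif, so these markers were not analysed here.

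Summed intensities of the other organ's markers were also read in each bud. The 4 stomach epithelium markers summed to an intensity of 48 in pancreas replicate 1 and 490 in pancreas replicate 2, against 12584 and 7181 in stomach. The 8 exocrine markers summed to 3011 and 3766 in stomach, against 40819 and 31201 in pancreas. Most of the stomach sum was ctrb1.L, and the other 7 summed to 282 and 415 in stomach, against 17617 and 12958 in pancreas. Of 40 genes for plasma proteins that the liver secretes, 35 were brighter in pancreas replicate 1 than in replicate 2, with a median ratio of 2.26, and their sums were 12370 and 5004 in pancreas against 5952 and 4630 in stomach. The median log2 difference of this list was accordingly 1.59 in isolation 1 and 0.37 in isolation 2. Its called members were 2 higher in pancreas, the antithrombin gene serpinc1.L and the inhibitor heavy chain gene itih2.S, and 1 higher in stomach, the transthyretin gene ttr.L. In all 20 of the leading genes higher in stomach, given below, pancreas replicate 1 was dimmer than pancreas replicate 2, while over all 369 genes called higher in stomach 159 were brighter in replicate 1, with a median ratio of 0.945. The part of neighbouring tissue in the results below was not tested. In RNA of whole buds, fewer cells of a type and less RNA per cell cannot be told apart.

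**Figure D2:**
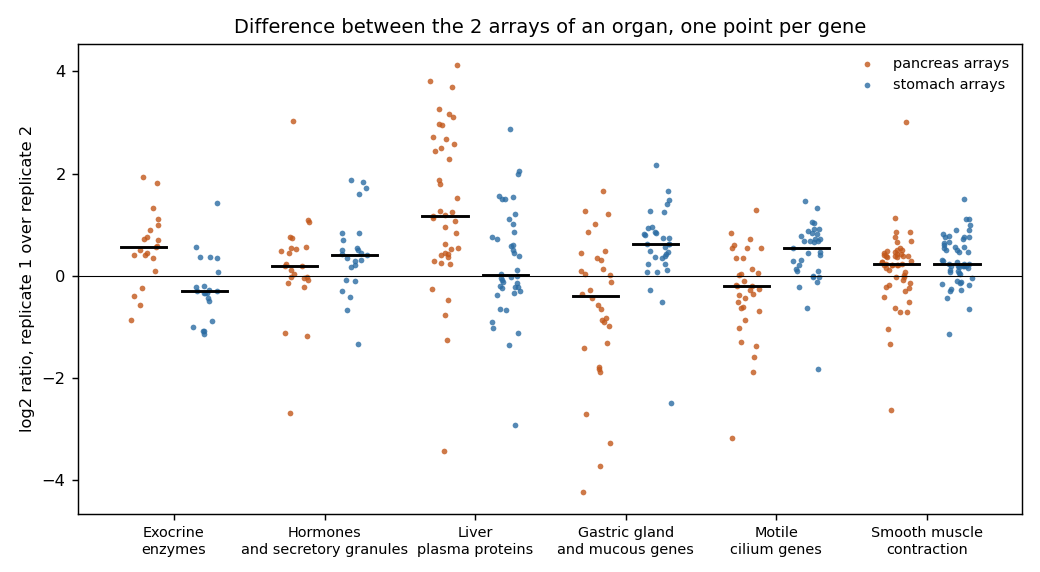
For 6 gene lists, each point is a gene and shows the log2 ratio of replicate 1 to replicate 2 among the pancreas arrays (orange) and among the stomach arrays (blue), with the median as a black bar. In pancreas the plasma protein genes lie above 0 and gastric genes spread far below 0, so the isolations differ in both lists.

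The called gene with the largest log2 difference in favour of the pancreas was stxbp6.L, whose product amisyn binds the SNARE proteins that fuse secretory vesicles with the plasma membrane. Its intensities were 2125 and 2059 in pancreas and 9.46 and 9.21 in stomach. Both organs were tight, with a log2 difference of 7.81 (SE 0.38, adjusted p = 0.0061); the 224-fold ratio became 83.2-fold when 16 was added to each intensity, since the stomach values lie at the dim end of the array. The insulin gene ins.S had values of 5865 and 5417 against 31.7 and 80.2, a log2 difference of 6.80 (SE 0.46, adjusted p = 0.00796). Its pancreas values sat close together, and its fold was 70.3 without stomach replicate 1 and 178 without stomach replicate 2. The other leading genes in this direction were mostly digestive enzymes and enzymes of amino acid breakdown, described below. Apart from these groups stood slurp1l.S, a gene of the small secreted Ly6 family, with 2873 and 2494 in pancreas against 95.6 and 110 in stomach (log2 difference 4.71, SE 0.21). MGC64344, an unnamed clone symbol for which no role is given here, had 15148 and 7656 against 154 and 142 (log2 difference 6.18, SE 0.72). No leading gene had an overlap between the organs, which the rule for choosing them required.

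**Figure D3:**
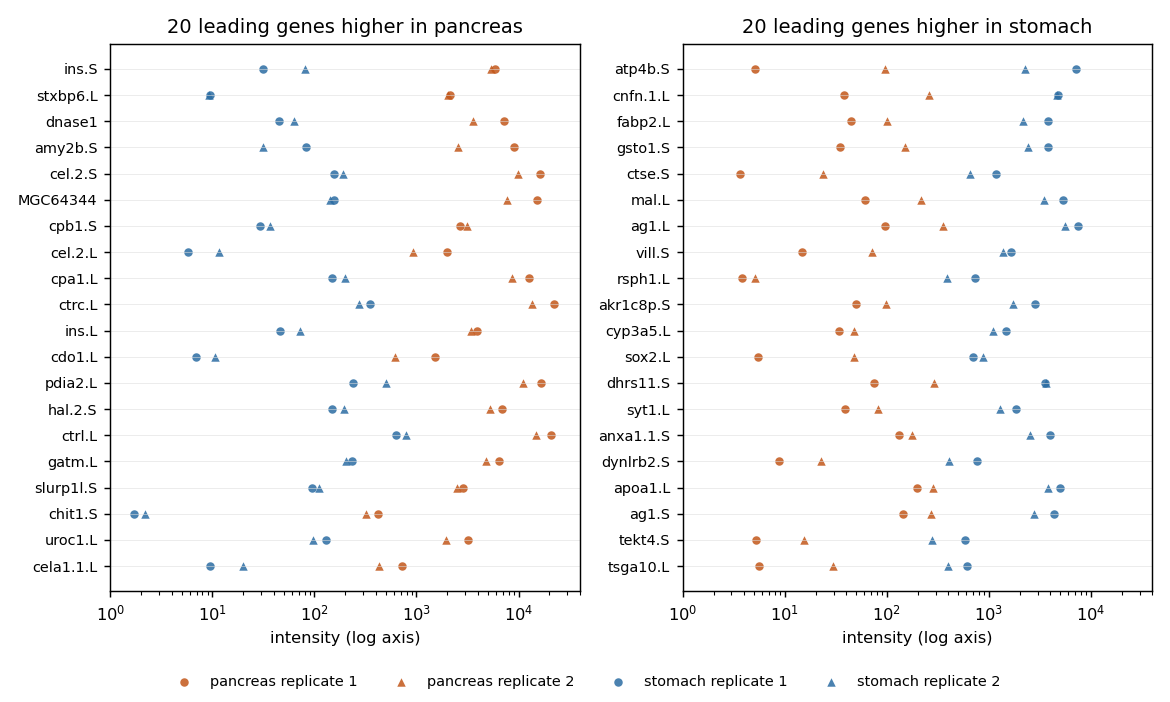
Intensity of the 20 leading genes in each direction, ranked by the difference after 16 was added, on a log axis; orange is pancreas, blue is stomach, circles are replicate 1 and triangles replicate 2. In the left panel the stomach values mostly lie together, while in the right panel many pancreas pairs are spread, with replicate 1 the lower in all 20, as for atp4b.S at 5.10 and 96.1.

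Digestive enzymes were the group with the largest median excess in pancreas. Of 21 measured genes on the exocrine list, 15 were higher in pancreas and none in stomach, with a median log2 difference of 5.27 beside 0.12 for all genes. Digestive enzymes are made as secreted proteins, often as inactive precursors, and break down protein, starch, fat, nucleic acid and chitin in the gut. The lists were written with earlier results of these data known, so this count describes the contrast and is not independent support. Summed over the 21 genes, intensity was 135430 and 88103 in pancreas and 4693 and 5800 in stomach. Without pancreas replicate 2 the count was 11, and without stomach replicate 2 it was 10.

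Among the proteases, the chymotrypsin C gene ctrc.L had 22138 and 13653 in pancreas against 351 and 275 in stomach (log2 difference 5.81, SE 0.32). The chymotrypsin-like gene ctrl.L had 20983 and 14812 against 627 and 792 (log2 difference 4.64, SE 0.28). Carboxypeptidase B, cpb1.S, which removes basic residues from peptide ends, had 2681 and 3152 against 29.3 and 37.1 (log2 difference 6.46, SE 0.22). In each of these genes both pancreas arrays stood far above both stomach arrays. The smallest called differences were those of the elastase gene cela1.4.L, at 266 and 107 against 29.1 and 27.8, and of the chymotrypsinogen gene ctrb1.L, at 23202 and 18243 against 2730 and 3351. These 2 calls and that of the trypsin gene prss1.L were lost when the isolation entered the fit as a block, with adjusted p of 0.0745, 0.0527 and 0.0599. The fold of cela1.4.L was 3.75 without pancreas replicate 1 and 9.35 without pancreas replicate 2.

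Among the other enzymes, the lipase gene cel.2.S, which splits fats and cholesterol esters in the presence of bile salts, had 16205 and 9785 in pancreas against 156 and 189 in stomach (log2 difference 6.20, SE 0.37). Amylase, amy2b.S, had 8963 and 2559 against 83.5 and 31.2 (log2 difference 6.55, SE 0.75). Its fold was 50.1 or 176 when pancreas replicate 1 or 2 was left out, and 153 or 57.4 when stomach replicate 1 or 2 was. The pancreas arrays of amylase thus differed more than those of the lipase, though neither gene overlapped between organs, as no called gene did. The chitinase gene chit1.S had 423 and 317 against 1.71 and 2.17 (log2 difference 7.57, SE 0.53), and its 190-fold ratio fell to 21.3 with 16 added. The deoxyribonuclease gene dnase1 had 7200 and 3590 against 45.0 and 62.9 (log2 difference 6.58, SE 0.41). The disulfide isomerase pdia2.L, an ER enzyme known mainly from pancreas, had 16505 and 11004 against 240 and 506 (log2 difference 5.27, SE 0.49).

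Genes of the ER apparatus that imports and folds secreted proteins were also higher in pancreas, by smaller amounts. The ER isomerase gene pdia2.L, given above with the enzymes, is not on the list of ER genes, whose largest log2 difference was 2.75. Of 68 measured genes 15 were higher in pancreas and 1 in stomach, with a median log2 difference of 0.88, and 56 of 68 had both pancreas arrays above both stomach arrays, beside 36.9% of all genes. The transcription factor gene xbp1.L, which drives ER expansion in secretory cells, had 2614 and 2115 in pancreas against 450 and 282 in stomach (log2 difference 2.72, SE 0.30). The ER prolyl isomerase gene fkbp11.L had 8386 and 5274 against 1391 and 705 (log2 difference 2.75, SE 0.42). Members of the import route were the translocon partner sec62.S, at 690 and 601 against 186 and 156 (log2 difference 1.92, SE 0.22), and both copies of the translocon-associated ssr3. The co-chaperone dnajc3.L, which acts in the response to unfolded protein, had 1164 and 792 against 229 and 249 (log2 difference 2.01, SE 0.27). The exception was the thioredoxin-domain gene txndc5.L, at 388 and 303 in pancreas against 1126 and 880 in stomach (log2 difference -1.54, SE 0.24). The count higher in pancreas was 6 on the pancreas and stomach arrays alone, and 0 without pancreas replicate 2 or without stomach replicate 2.

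Further along the route the shift was not seen in the calls. Of 65 genes for Golgi, coat and vesicle proteins 1 was higher in pancreas, the cargo receptor lman1.S at 907 and 606 against 133 and 123 (log2 difference 2.53, SE 0.46), and 2 were higher in stomach. With the replicate block 2 were higher in pancreas. The median of this list was 0.34, and 47 of its 65 genes had a positive log2 difference, 44 after quantile normalization. Over all 7531 genes these counts were 4310 and 4059. In 33 of 65 both pancreas arrays stood above both stomach arrays, beside 36.9% of all genes. In protein synthesis differences were small. Of 40 translation factor genes 40 had a positive log2 difference, with a median of 0.69, and 36 did after quantile normalization, with a median of 0.49. All 70 ribosomal protein genes had a positive log2 difference with a median of 0.35, but after quantile normalization 34 did and the median was -0.003, so their direction depends on the scaling of these bright genes. Of these, 3 translation factors were called (eif5.S, gspt1.L and pabpc4.L) and 0 ribosomal proteins, and of 25 aminoacyl-tRNA synthetases 0 were called, 2 with the replicate block, at a median of 0.68. The poly(A)-binding protein gene pabpc4.L had 211 and 337 against 55.6 and 78.0 (log2 difference 2.02, SE 0.40). The ribosomal gene rps13.L had 21002 and 17156 against 15681 and 14514 (log2 difference 0.33, adjusted p = 0.384), which shows how narrow the gap is for single members.

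Enzymes that break down histidine and make creatine formed another group with large differences. Of 41 genes on the list of amino acid supply and creatine synthesis 8 were higher in pancreas and 3 in stomach, at a median of 0.58. The count higher in pancreas was 7 without pancreas replicate 2 and 3 without stomach replicate 2. Histidine ammonia-lyase, hal.2.S, the first enzyme of histidine breakdown, had 6900 and 5249 in pancreas against 148 and 196 in stomach (log2 difference 5.14, SE 0.34). The next enzymes of that pathway followed in the same direction: urocanate hydratase, uroc1.L, at 3230 and 1952 against 130 and 97.5, amdhd1.L at 355 and 292 against 19.7 and 24.3, and ftcd.L at 3087 and 1931 against 129 and 123. Their log2 differences were 4.48 (SE 0.43), 3.88 (SE 0.23) and 4.27 (SE 0.43), so each of the 4 steps was over 10-fold higher in pancreas. Both enzymes of creatine synthesis were higher in pancreas as well. The first, gatm.L, had 6384 and 4815 against 232 and 206 (log2 difference 4.66, SE 0.22), and the second, gamt, was called in both copies, with 1101 and 724 against 94.0 and 95.1 for gamt.S.

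The creatine kinases, which use creatine as an energy store, went the other way. The brain-type gene ckb.L had 857 and 864 in pancreas against 9093 and 5315 in stomach (log2 difference -3.01, SE 0.33). The muscle-type gene ckm.L had 238 and 317 against 2070 and 1454 (log2 difference -2.66, SE 0.27), though another probe set of ckm.L differed by 0.34 in the opposite direction without being called. The mitochondrial gene ckmt1b.S had 148 and 148 against 1940 and 593, with its stomach arrays far apart. Its fold was 4.0 without stomach replicate 1 and 13.1 without stomach replicate 2, and its adjusted p was 0.0557 with the replicate block. The other copy, ckmt1b.L, was not called (adjusted p = 0.349).

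Amino acid breakdown outside that list added cysteine dioxygenase, cdo1.L, which starts the breakdown of cysteine, at 1529 and 620 in pancreas against 6.91 and 10.5 in stomach (log2 difference 6.84, SE 0.84). Without pancreas replicate 1 its fold was 72.8 and without pancreas replicate 2 it was 180, and with 16 added it was 40.2. The glucose-6-phosphatase gene g6pc1.3.L, which releases free glucose, was higher in pancreas at 1016 and 538 against 39.3 and 17.9 (log2 difference 4.80, SE 0.62), with a fold of 27.9 that was 17.5 with 16 added. Of 46 genes for glycolysis and glycogen 3 (6.52%, beside 4.41% of all genes) were higher in pancreas, g6pc1.3.L, gyg1.S and rpia.L. Higher in stomach were 4 (8.7%, beside 4.9% of all genes), ldhb.S, hk1.L, gpi.S and pfkp.S. Genes of this kind are also known from liver, and the plasma protein genes given above were brighter in pancreas replicate 1 than in replicate 2. In cdo1.L, g6pc1.3.L, hal.2.S, uroc1.L, amdhd1.L, ftcd.L, gatm.L and both copies of gamt replicate 1 was also the brighter pancreas array. The same held for 17 of 21 exocrine enzyme genes, with a median ratio of 1.48, beside 2.26 for the plasma protein genes. It held for 58 of 68 ER genes, with a median ratio of 1.24, and for 50.8% of all genes. A part of adhering liver tissue was not tested.

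Of 25 measured genes for transcription factors of the pancreas lineage 6 were higher in pancreas and 1 in stomach, with a median log2 difference of 0.25. The first count was 1 without pancreas replicate 2 and 3 without stomach replicate 2. The nuclear receptor nr5a2, which activates acinar enzyme genes in mouse, was called in both copies. Its L copy had 554 and 519 in pancreas against 18.6 and 19.96 in stomach (log2 difference 4.80, SE 0.24), and its S copy had 612 and 667 against 13.01 and 33.9 (log2 difference 4.93, SE 0.49). The copies thus gave nearly equal differences, while a second probe set of nr5a2.S showed -0.05 and was not called. With 16 added the folds were 15.7 for nr5a2.L and 17.2 for nr5a2.S, in place of 27.8 and 30.4. The fold of nr5a2.S was 18.8 without stomach replicate 1 and 49.1 without stomach replicate 2. The homeobox gene prox1.L, expressed in early pancreas and liver of vertebrates, had 268 and 328 against 24.1 and 50.9 (log2 difference 3.08, SE 0.39). The remaining called members were gata6.S, rbpj.S, which is also the DNA-binding partner of Notch and of the acinar factor Ptf1a, and xbp1.L. The gene higher in stomach was the forkhead factor foxa1.S, at 462 and 387 against 2551 and 2100 (log2 difference -2.45, SE 0.27), and with the replicate block 2 members were higher in stomach.

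The list of hormone and secretory granule genes was called in both directions. Of 24 measured genes for hormones and secretory granules 3 were higher in pancreas and 3 in stomach, with a median of -0.29. The pancreas side held both insulin copies and the prohormone convertase pcsk2.L, which cuts proinsulin, at 566 and 585 against 54.5 and 47.0 (log2 difference 3.51, SE 0.33). The stomach side held ttr.L, the granule protein gene chga.L at 131 and 114 against 733 and 556 (log2 difference -2.39, SE 0.24), and the neuropeptide gene vip.L at 16.5 and 19.2 against 49.3 and 52.2. Somatostatin, sst.1.L, had 102 and 47.6 in pancreas against 819 and 268 in stomach, with arrays that did not overlap, but its adjusted p was 0.0725. Glucagon, gcg.L, had 17.1 and 11.6 against 82.4 and 23.1 (adjusted p = 0.272). No hormone gene other than insulin was called higher in pancreas, and without pancreas replicate 2 none of the list was called higher in stomach.

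Claudin 6 was the gene of epithelial junctions with the clearest excess in pancreas. It has tandem copies in Xenopus, and all 4 measured ones were higher in pancreas. The gene cldn6.1.L had 550 and 437 against 31.4 and 42.5 (log2 difference 3.75, SE 0.27), and cldn6.1.S had 1584 and 1574 against 124 and 215 (log2 difference 3.28, SE 0.31). The gene cldn6.2.S had 3093 and 3059 against 266 and 503 (log2 difference 3.07, SE 0.35), and cldn6.2.L had 4279 and 3638 against 253 and 671, with a fold of 5.88 without stomach replicate 1 and 15.6 without stomach replicate 2. Pancreas arrays agreed closely in each copy, and stomach replicate 2 was the brighter stomach array in each. Copies this alike can share probe signal, so the 4 are not independent. Of 74 genes for junctions and keratins 7 (9.46%) were higher in pancreas and 10 (13.5%) in stomach, beside 4.41% and 4.9% of all genes. The stomach side was led by cnfn.1.L, named for cornifelin, a protein of the cornified envelope in mammals, at 38.3 and 256 in pancreas against 4784 and 4603 in stomach, with a fold of 18.3 without pancreas replicate 1 and 123 without pancreas replicate 2. It further held annexin A1, anxa1.1.S at 132 and 177 against 3960 and 2539 (log2 difference -4.37, SE 0.32), and the keratin gene krt7.L at 190 and 185 against 1892 and 1429.

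Gastric gland and mucous genes were higher in stomach. Of 32 measured genes 15 were higher in stomach and none in pancreas, with a median log2 difference of -2.76, and 23 had both stomach arrays above both pancreas arrays, beside 25.1% of all genes. The gene for the beta subunit of the gastric proton pump, atp4b.S, had 5.10 and 96.1 in pancreas and 7141 and 2264 in stomach (log2 difference -7.51, SE 1.43, adjusted p = 0.045). The pancreas arrays differed widely: the fold was 41.9 or 788 when pancreas replicate 1 or 2 was left out, and 102 or 323 when stomach replicate 1 or 2 was. The gastric protease gene cathepsin E, ctse.S, had 3.63 and 23.6 against 1179 and 655 (log2 difference -6.57, SE 1.22), with folds of 37.3 and 242 without pancreas replicate 1 and 2. Both calls were lost with the replicate block, at adjusted p of 0.0694 and 0.0715, and with 16 added the folds of atp4b.S and ctse.S were 83.1 and 32.1, in place of 182 and 94.98. The count was 12 with that block, 7 without pancreas replicate 2 and 3 without stomach replicate 2. Summed over the list, intensity was 9778 and 8999 in pancreas and 49653 and 30474 in stomach, although 13 of the 32 genes were brighter in pancreas replicate 1 than in replicate 2.

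The mucous side of this list included the lectin and membrane genes of the surface epithelium. The gene mal.L, for a protein that sorts cargo to the apical membrane, had 61.6 and 217 in pancreas against 5324 and 3454 in stomach (log2 difference -5.21, SE 0.64), with folds of 19.7 and 69.6 without pancreas replicate 1 and 2. Anterior gradient, first known from the cement gland of frog embryos and a relative of the mucin-folding isomerase agr2, was called in both copies of ag1. Its L copy had 95.7 and 351 against 7417 and 5541, with folds of 18.2 and 67.0 without pancreas replicate 1 and 2, and its S copy had 144 and 268 against 4319 and 2794 (log2 difference -4.14, SE 0.40). The tetraspanin gene tspan8.L had 258 and 185 against 2485 and 1305 (log2 difference -3.04, SE 0.38), and the galectin gene lgals3.L had 188 and 241 against 1913 and 1458 (log2 difference -2.97, SE 0.25). In these 5 genes no pancreas array reached a stomach array, as in every gene called higher in stomach. Glycosyltransferases that build mucin sugars were called too: fut6.S had 3.30 and 5.83 against 294 and 169 (log2 difference -5.67, SE 0.85), and b3gnt3.2.L and gcnt1.L were higher in stomach.

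Motile cilium genes had the highest share of calls of all 35 lists in the stomach direction. Of 33 measured genes 21 were higher in stomach and none in pancreas, with a median log2 difference of -2.18, and 31 of 33 had both stomach arrays above both pancreas arrays, beside 25.1% of all genes. These genes code for the radial spokes, dynein arms and doublet-stabilising tektins of beating cilia. The radial spoke head gene rsph1.L had 3.78 and 5.13 in pancreas and 732 and 390 in stomach (log2 difference -6.92, SE 0.36, adjusted p = 0.0061). The pancreas arrays lay near the dim end, and with 16 added the 121-fold ratio was 26.9-fold. The radial spoke gene rsph3.L had 1.74 and 1.58 against 174 and 105 (log2 difference -6.35, SE 0.29). Its values were dimmer still in both organs, so the size of its difference is less certain than that of rsph1.L. The tektin gene tekt4.S had 5.18 and 15.5 against 579 and 278, with folds of 25.8 and 77.4 without pancreas replicate 1 and 2. The dynein light chain gene dynlrb2.S had 8.74 and 22.6 against 769 and 408, with folds of 24.7 and 64.1 without pancreas replicate 1 and 2. The cyclin-like gene ccno.L, needed for the many centrioles of multiciliated cells, had 49.2 and 59.7 against 679 and 615 (log2 difference -3.58, SE 0.22). Outside the list, the centrosomal gene tsga10.L had 5.64 and 29.5 against 603 and 399 and was among the 20 leading stomach genes, with folds of 16.6 and 87.0 without pancreas replicate 1 and 2. With 16 added the folds of tekt4.S, dynlrb2.S and tsga10.L were 16.2, 18.7 and 16.2, in place of 44.7, 39.8 and 38.1.

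Several values bear on the cilium result. In stomach replicate 1 the 33 genes summed to 24850 and in replicate 2 to 18890, against 7741 and 8638 in pancreas. The call of rsph9.L was lost with the replicate block (adjusted p = 0.0594), where 17 members were called; the count was 8 without pancreas replicate 2 and 6 without stomach replicate 2. The defining ciliated-cell markers, tekt2.S, tekt2.L, dnah9.S and spag6.L, summed to 36 and 45 in pancreas against 621 and 348 in stomach. Whether the cilia belong to the stomach lining itself or to gut tube taken with it was not tested.

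Smooth muscle genes were higher in stomach, whose wall holds circular and longitudinal muscle. Of 52 measured genes for smooth muscle contraction 16 were higher in stomach and none in pancreas, with a median of -0.53; the count was 2 without pancreas replicate 2 and 1 without stomach replicate 2. Smooth muscle actin, acta2.L, had 881 and 484 in pancreas against 6909 and 4649 in stomach (log2 difference -3.12, SE 0.37). Transgelin, tagln.L, which binds actin filaments, had 199 and 141 against 1956 and 1258 (log2 difference -3.23, SE 0.36). The heavy chain gene myh11.S, the motor of smooth muscle, had 45.7 and 39.3 against 983 and 576 (log2 difference -4.15, SE 0.83), and desmin, des.1.S, had 96.0 and 86.6 against 1102 and 1020 (log2 difference -3.54, SE 0.41). No array of one organ reached the other in these genes, as in every called gene. Calponin, cnn1.S, smoothelin in both copies of smtn, and the calcium-gated chloride channel ano1.L, a marker of pacemaker cells of the gut wall, were also higher in stomach. Of 50 genes for skeletal and heart muscle 4 (8.0%, beside 4.9% of all genes) were called, all higher in stomach: ckm.L, myl1.S, myoz2.L and nkx2-5.S, at a median of 0.07. That count was 1 on the pancreas and stomach arrays alone. Of the 4, myl1.S lay at the dim end, at 1.26 and 1.62 in pancreas against 4.88 and 8.03 in stomach. With 16 added its fold was 1.28 in place of 4.38, and that of myoz2.L was 1.68 in place of 2.19. The brighter copy myl1.L had 57.3 and 61.3 against 38.6 and 45.5 and was not called (log2 difference 0.50).

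Matrix and neuronal genes followed the muscle genes in smaller numbers. Of 43 matrix genes 5 (11.6%) were higher in stomach and 1 (2.33%) in pancreas, beside 4.9% and 4.41% of all genes. The list had a median of -0.12, and without pancreas replicate 2 or stomach replicate 2 none was called higher in stomach. Collagen III, col3a1.S, had 439 and 316 in pancreas against 2386 and 1873 in stomach (log2 difference -2.50, SE 0.32), and collagen VI was called through col6a1.L and col6a2.L. The cross-linking enzyme gene loxl1.L was higher in pancreas, at 377 and 250 against 84.7 and 103, and its adjusted p was 0.0522 with the replicate block. Of 41 genes of enteric neurons and glia 7 were higher in stomach and none in pancreas, with a median of -0.74, and the count was 2 without either replicate 2 array. The synaptic vesicle sensor syt1.L had 38.7 and 82.5 against 1830 and 1288 (log2 difference -4.76, SE 0.43). It far exceeded the other members, of which the intermediate filament gene prph.L of peripheral neurons had 51.6 and 53.1 against 286 and 164 (log2 difference -2.05, SE 0.31), and the growth-cone gene gap43.S had 33.2 and 26.2 against 95.7 and 112. The call of dpysl3.L was lost with the replicate block (adjusted p = 0.0593).

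Of 46 genes for stomach and gut transcription factors 7 were higher in stomach and 2 in pancreas, with a median of -0.26. Sox2, which marks the anterior gut, was measured by sox2.L at 5.50 and 47.2 in pancreas against 700 and 882 in stomach (log2 difference -5.61, SE 0.99), with folds of 16.6 and 143 without pancreas replicate 1 and 2. The zinc finger gene klf5.S, known from gut epithelium, had 11.8 and 7.92 against 95.5 and 108 (log2 difference -3.40, SE 0.40). Foxf1.L, a factor of the gut mesoderm that responds to hedgehog signals, had 114 and 144 against 729 and 791 (log2 difference -2.57, SE 0.22). With 16 added the folds of sox2.L and klf5.S were 21.8 and 4.57, in place of 48.8 and 10.5. The other members higher in stomach were hoxc5.L, nkx2-5.S, hoxa3.S and gata5.S. The brighter copy gata5.L had 874 and 657 in pancreas against 566.5 and 479 in stomach and was not called (log2 difference 0.54). The gap between the gata5 copies was 1.68 (SE 0.22, adjusted p = 0.0411, and 0.0622 with the block). The 2 higher in pancreas were meis2.L, at 482 and 371 against 170 and 178, and id2.S, at 558 and 570 against 187 and 193. The count in stomach was 2 without pancreas replicate 2 and 0 without stomach replicate 2.

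Hedgehog signalling is known to be kept out of the early pancreas territory while it acts in the stomach. Of 16 measured hedgehog genes 5 were higher in stomach and none in pancreas, with a median of -0.85, and 13 of 16 had both stomach arrays above both pancreas arrays, beside 25.1% of all genes. The ligand gene shh.L had 14.1 and 11.2 in pancreas against 96.1 and 120 in stomach (log2 difference -3.10, SE 0.35), and the ligand gene dhh.L had 8.11 and 3.79 against 42.3 and 52.5 (log2 difference -3.09, SE 0.44). The signal transducer smo.S had 9.16 and 5.59 against 36.7 and 31.8, but its other copy, smo.L, had 102 and 96.3 against 107 and 108 (log2 difference -0.12, adjusted p = 0.728). The gap between the smo copies was 2.14 (SE 0.32, adjusted p = 0.0463, and 0.0724 with the block). The genes shh.L, dhh.L and smo.S are dim, and with 16 added the folds were 4.33 for shh.L, 2.90 for dhh.L and 2.15 for smo.S, in place of 8.58, 8.51 and 4.77. The transcriptional effector gli3.L had 46.4 and 52.6 against 106 and 124 (log2 difference -1.22, SE 0.20). Without pancreas replicate 2 the count was 1, and without stomach replicate 2 it was 0.

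Other signalling lists had few calls, in mixed directions. Of 53 Wnt genes 4 were higher in pancreas and 3 in stomach. On the pancreas side stood the receptor fzd10.S, at 229 and 245 against 29.4 and 23.4 (log2 difference 3.17, SE 0.28), the ligands wnt5b.S and wnt7b.L, and the feedback target axin2.L at 86.8 and 100 against 23.4 and 30.0. On the stomach side stood the secreted Wnt antagonist sfrp2.S, at 87.7 and 107 against 1115 and 960 (log2 difference -3.42, SE 0.30), its relative sfrp1.L, and the ligand wnt5a.S at 3.17 and 5.67 against 53.5 and 47.3. The paralogous ligands wnt5a.S and wnt5b.S were therefore called in opposite directions. Of 29 Notch genes 4 were higher in pancreas: the receptor notch1.S, rbpj.S, and the targets hes5.3.L, at 130 and 87.2 against 5.66 and 6.0, and hes7.2.L, at 20.9 and 19.97 against 3.84 and 5.71. None was higher in stomach, and 1 was with the replicate block. Of the 29 Notch genes 15 had a positive log2 difference and 14 a negative one, with a median of 0.06. In 8 both pancreas arrays stood above both stomach arrays, and in 9 the reverse held, beside 36.9% and 25.1% of all genes. With 16 added the folds were 5.63 for hes5.3.L, 1.76 for hes7.2.L, 3.26 for wnt5a.S and 5.97 for fzd10.S, in place of 18.3, 4.37, 11.9 and 9.01.

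Of 43 genes for FGF, IGF and receptor kinases 2 were higher in pancreas and 4 in stomach. Both copies of the FGF receptor gene fgfr4 were higher in pancreas, with 286 and 276 against 62.7 and 66.3 for fgfr4.L (log2 difference 2.12, SE 0.19) and 173 and 233 against 60.6 and 64.1 for fgfr4.S. The call of fgfr4.S was lost with the replicate block (adjusted p = 0.0684). The ephrin receptor genes epha4.L and epha2.L, the ligand efnb2.S and the FGF target etv4.L were higher in stomach, but epha2.L and efnb2.S lost their calls with the block, at adjusted p of 0.0584 and 0.0692. Of 56 genes of the BMP, TGF-beta and activin pathways 1 was higher in pancreas, id2.S, and 1 in stomach, the activin antagonist fst.L at 9.93 and 9.67 against 110 and 172 (log2 difference -3.81, SE 0.69), with a fold of 14.0 that was 5.96 with 16 added. With the replicate block 2 were higher in stomach. Beside 4.41% and 4.9% of all genes called, the shares were 7.55% and 5.66% for Wnt, 4.65% and 9.3% for FGF and 1.79% in each direction for BMP. For Notch they were 13.8%, the 4 genes named above, and 0%. Without pancreas replicate 2 or stomach replicate 2, at most 1 gene per direction of the Wnt, Notch, FGF and BMP lists was called.

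Some lipid carriers and detoxifying enzymes were higher in stomach. Of 17 measured genes for lipid absorption and the brush border 4 were higher in stomach and 1 in pancreas, and 3 were higher in stomach without either replicate 2 array. The fatty acid carrier fabp2.L had 44.1 and 99.2 in pancreas against 3814 and 2151 in stomach (log2 difference -5.44, SE 0.49), with folds of 28.9 and 65.0 without pancreas replicate 1 and 2. Apolipoprotein A-I was called in both copies, at 196 and 283 against 4988 and 3793 for apoa1.L (log2 difference -4.21, SE 0.27), and apob.S, the scaffold of lipoprotein particles, had 134 and 97.8 against 1597 and 1315 (log2 difference -3.66, SE 0.24). The peptidase gene anpep.L went the other way, at 982 and 803 against 59.9 and 128 (log2 difference 3.34, SE 0.42). Intestinal tissue shares these genes; of its other markers cdx1.S and vil1.S were not called.

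Of 41 genes for glutathione and oxidant defence 9 were higher in stomach and 2 in pancreas, with a median of -0.60. The count in stomach was 2 without pancreas replicate 2 and 3 without stomach replicate 2. Among the glutathione transferases, which attach glutathione to reactive compounds, gstt1.L had 161 and 213 in pancreas against 3996 and 2144 in stomach (log2 difference -3.98, SE 0.37), and gsta1.L had 265 and 537 against 4768 and 4075 (log2 difference -3.55, SE 0.42). The gene gsto1.S had 34.8 and 149 against 3759 and 2438, with folds of 20.3 and 86.9 without pancreas replicate 1 and 2, and gstp1.L lost its call with the block (adjusted p = 0.0568). These 4 transferases were named as the leading calls of the list in the stomach direction, so their common direction was fixed by the choice. Of all 41 genes 32 had a negative log2 difference and 9 a positive one. The catalytic subunit of glutathione synthesis, gclc.L, had 98.4 and 117 against 717 and 540 (log2 difference -2.54, SE 0.23). On the pancreas side stood the ER peroxiredoxin prdx4.S, at 400 and 354 against 159 and 148, and ggt1.L, which breaks down extracellular glutathione.

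Enzymes of retinoid, alcohol and P450 oxidation were called in both directions, 3 of 48 higher in pancreas and 5 in stomach. These shares were 6.25% and 10.4%, beside 4.41% and 4.9% of all genes. The P450 gene cyp3a5.L had 33.6 and 47.5 in pancreas against 1476 and 1087 in stomach (log2 difference -4.99, SE 0.28), and the retinoic acid-degrading cyp26a1.L had 8.89 and 5.53 against 162 and 89.1 (log2 difference -4.10, SE 0.39). Retinaldehyde dehydrogenase aldh1a1 was higher in stomach in both copies, with 206 and 116 against 810 and 631 for aldh1a1.L. On the pancreas side, cyp1a1.L had 229 and 120 against 5.97 and 4.0 (log2 difference 5.08, SE 0.38), and the retinoic acid carrier crabp2.L had 375 and 229 against 29.6 and 42.6 (log2 difference 3.05, SE 0.33). Adding 16 lowered the fold of cyp1a1.L from 33.9 to 8.71 and that of cyp26a1.L from 17.1 to 5.91. The retinol dehydrogenase rdh10.L, at 664 and 461 against 242 and 233, lost its call with the block (adjusted p = 0.0568). The list had a median of 0.05, and its stomach count was 1 without pancreas replicate 2.

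**Figure D4:**
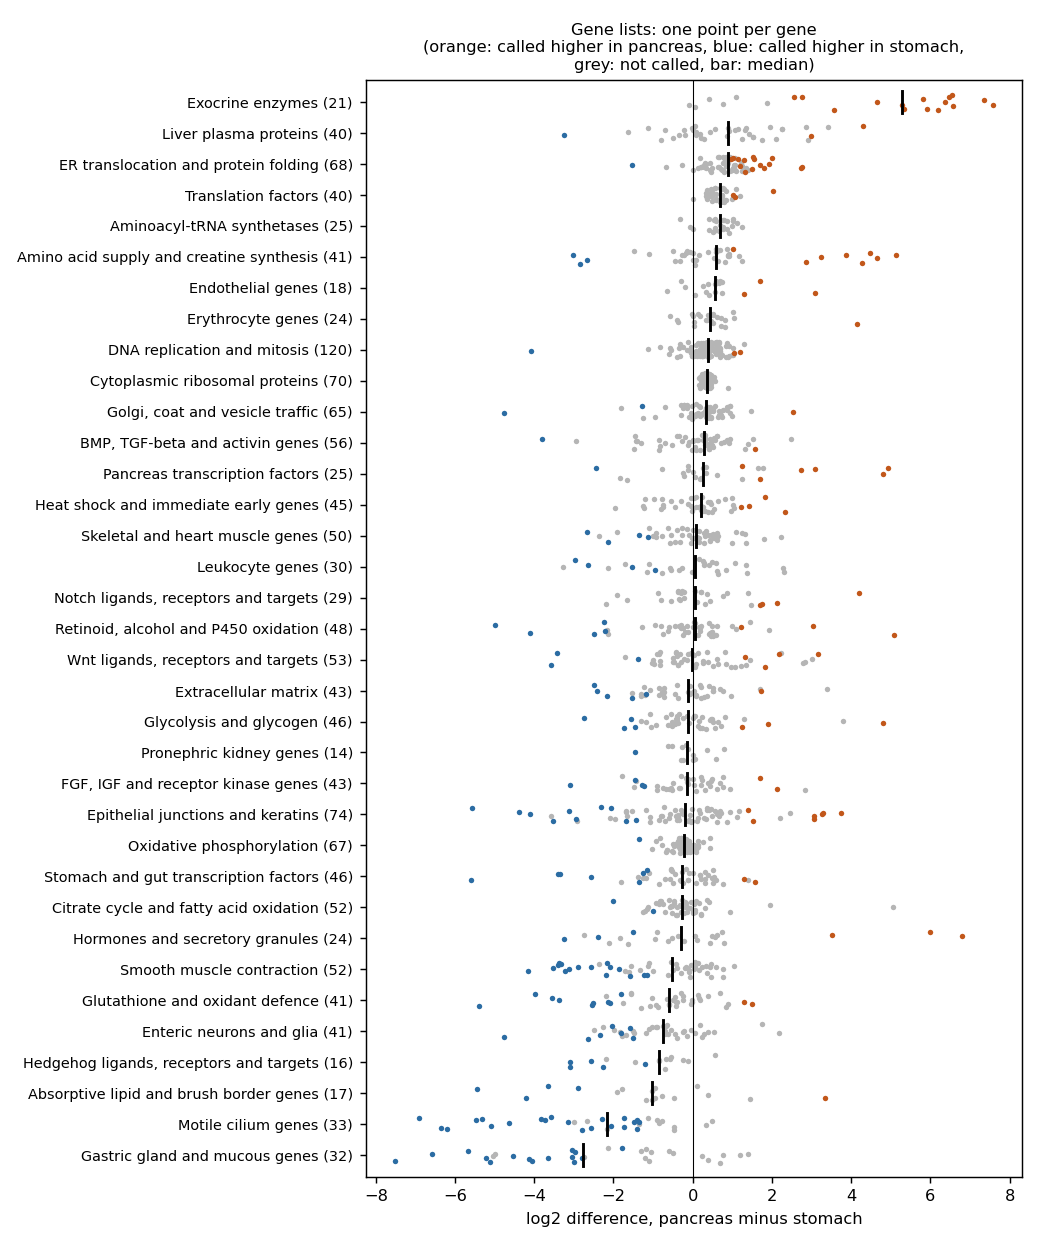
Log2 difference, pancreas minus stomach, of each measured gene on 35 lists, sorted by the list median (black bar), with the number of genes in parentheses. Orange points are called higher in pancreas and blue points higher in stomach; exocrine enzymes stand at the top with a median of 5.27, and motile cilium and gastric genes at the bottom with -2.18 and -2.76.

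Lists of oxidative metabolism and of DNA replication had few calls. Of 67 genes of oxidative phosphorylation 1 was higher in stomach (cox4i2.S), although 55 had a negative log2 difference, and 63 after quantile normalization, with medians of -0.23 and -0.47. Of 52 genes of the citrate cycle and fatty acid oxidation 2 were higher in stomach, cpt1b.L and acly.S, and 1 was higher in pancreas with the replicate block, where acly.S was not called (adjusted p = 0.0532). Of 120 genes for DNA replication and mitosis 2 were higher in pancreas, ncapd2.S and cdk2.S, at a median of 0.38. A positive log2 difference was found in 101 of the 120, and in 97 after quantile normalization. In 69 both pancreas arrays stood above both stomach arrays, beside 36.9% of all genes. With the replicate block ncapd2.S was called and cdk2.S was not (adjusted p = 0.051). The germ-line and cilium cyclin ccna1.L was higher in stomach, at 5.01 and 5.07 against 76.0 and 95.4, with a fold of 16.9 that was 4.81 with 16 added. Of 45 heat shock and immediate early genes 4 (8.89%, beside 4.41% of all genes) were higher in pancreas, both copies of the growth regulator myc, jun.L and hsf2.L. The gene myc.S had 2843 and 2608 against 532 and 548 (log2 difference 2.33, SE 0.19). None of that list was higher in stomach, and 1 was with the block.

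Blood and vessel genes were measured as neighbours of both buds. Of 18 endothelial genes 3 (16.7%, beside 4.41% of all genes) were higher in pancreas, aplnr.S, sox18.L and prox1.L. The last was counted among pancreas factors too, and aplnr.S lost its call with the block (adjusted p = 0.0648). The defining endothelial markers pecam1.L and tek.S were not called and summed to 336 and 265 in pancreas against 362 and 341 in stomach. Of 24 erythrocyte genes 1 was higher in pancreas, the red-cell enzyme gene bpgm.S, at 148 and 103 against 6.16 and 7.84, with a fold of 17.8 that adding 16 lowered to 6.10. Of 30 leukocyte genes 4 (13.3%, beside 4.9% of all genes) were higher in stomach, lgals3.L, lyn.L, ctss.S and cxcr4.S. The first was also given above among the mucous genes. Of the 30 genes 15 had a positive log2 difference and 15 a negative one, with a median of 0.07. The call of ctss.S was lost with the block (adjusted p = 0.0534), which called 1 in pancreas. The defining leukocyte markers mpo, ptprc and lcp1 were not called and summed to 228 and 204 in pancreas against 112 and 72 in stomach. Of 14 genes of the pronephric kidney, which lies close to the gut, 1 was called, mecom.L, higher in stomach.

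The L and S copies of a gene could be compared in 1017 pairs, through the log2 ratio of L to S on each array, which sets no probe set's level against another's. In 30 pairs, 2.95% of those tested, the pancreas-stomach difference itself differed between the copies (limma, adjusted p under 0.05 over pairs), and 191 pairs had an unadjusted p under 0.05. In 17 of the 30 the L copy leaned further to the pancreas and in 13 the S copy did. This count is fragile: it was 5 with the replicate block, and 0 without any single array and without the liver arrays. Across pairs the differences of the copies correlated at r = 0.603, a description over genes on the same arrays. Both copies were called higher in pancreas in 19 pairs and higher in stomach in 20. Of 106 pairs with a single called copy, the other copy had the same sign in 86, and in 20 the copies were called different by the test of the difference. Copies alike in sequence can share probe signal, as said above for the claudin copies. The L and S copies of a gene therefore need not be independent measurements, here or where both copies are given above. How much shared signal adds to the correlation and to the counts of pairs in agreement was not tested.

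In 3 pairs the copies were called in opposite directions. The keratin gene krt19.L had 960 and 1291 in pancreas against 4576 and 4790 in stomach (log2 difference -2.07, SE 0.28), while krt19.S had 757 and 577 against 194 and 270 (log2 difference 1.53, SE 0.27). The gap between these differences was -3.60 (SE 0.36, adjusted p = 0.0303), and 0.0569 with the block, which also ended the call of krt19.S (adjusted p = 0.0565). The ferric reductase relative frrs1.L had 105 and 123 against 379 and 386, and frrs1.S had 526 and 486 against 204 and 147, a gap of -3.29 (SE 0.43, adjusted p = 0.0411, and 0.0441 with the block). The annexin gene anxa5.L, for a phospholipid-binding protein, had 76.8 and 72.9 against 220 and 226, and anxa5.S had 1210 and 1147 against 601 and 438, a gap of -2.77 (SE 0.27, adjusted p = 0.0303, and 0.0441 with the block). For anxa5.S alone the blocked fit gave an adjusted p of 0.057. Of its 5 other probe sets 0 were called: 4 had the same sign, and the remaining probe set gave a log2 difference of -0.60. The direction called for anxa5.S thus rests on 1 probe set. The gaps of frrs1 and anxa5 were thus called with and without the block.

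Several of the largest gaps arose in genes with a single called copy. The L copy of bcat1, a branched-chain amino acid transaminase, had 601 and 688 in pancreas against 165 and 144 in stomach, while its S copy had 7.49 and 32.2 against 690 and 184. The gap was 6.58 (SE 0.85, adjusted p = 0.0411, and 0.0627 with the block); bcat1.S itself had an adjusted p of 0.051. The L copy of cyp1a1, given above, was higher in pancreas, and cyp1a1.S had 45.8 and 37.8 against 35.3 and 43.2, a gap of 4.99 (SE 0.41, adjusted p = 0.0303, and 0.0208 with the block); the stomach values of cyp1a1.L lie at the dim end. The neuroserpin gene serpini1.L, coding for a protease inhibitor, had 1231 and 1235 against 74.4 and 74.1, and serpini1.S had 23.1 and 19.8 against 17.3 and 12.4, a gap of 3.51 (SE 0.53, adjusted p = 0.0463, and 0.0569 with the block). In muscle, tropomyosin tpm2.S had 79.3 and 68.9 against 676 and 454, while tpm2.L had 101 and 74.0 against 102 and 46.7 with overlapping organs, a gap of 3.24 (SE 0.31, adjusted p = 0.0303, and 0.0375 with the block). The cilium gene tekt2 was lower in pancreas in both copies, with 1.65 and 2.36 against 186 and 113 for tekt2.S and 9.31 and 22.7 against 109 and 39.5 for tekt2.L, which was not called. The fold of tekt2.S was 73.6, and 8.98 after 16 was added. In each of these pairs the L copy leaned further to the pancreas. Gaps the other way were -2.84 for c1orf21 (SE 0.43, adjusted p = 0.0463, and 0.0727 with the block) and -2.53 for kmt5a (SE 0.39, adjusted p = 0.0463, and 0.0724 with the block). Of their copies c1orf21.L was called higher in stomach and kmt5a.S higher in pancreas. Probe sets with a name ending in _s_at or _x_at, which the array marks as able to bind several transcripts, occurred in 76 of the 1017 pairs and in 2 of the 30. Names ending in _a_at were not counted.

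**Figure D5:**
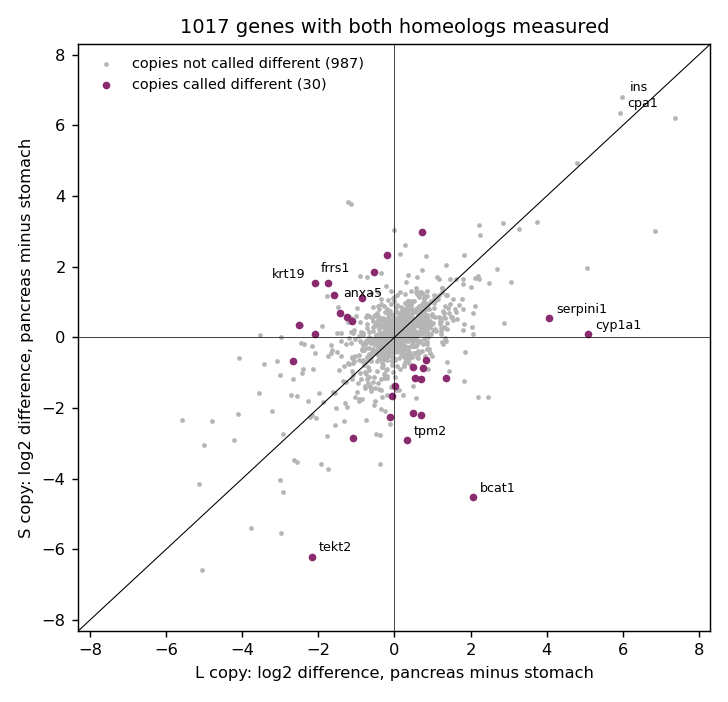
Each point is 1 of 1017 genes, with the log2 difference (pancreas minus stomach) of its L copy on the horizontal axis and of its S copy on the vertical axis; the diagonal marks equal differences. Purple marks the 30 pairs called different: krt19, frrs1 and anxa5 lie in the upper left, where the S copy is higher in pancreas and the L copy in stomach, and ins and cpa1 lie near the diagonal, not called different.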

How the data were processed

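The deposited table holds linear intensity values from the authors, with a column for each array. Per the submitters' processing notes RMA was used (no version stated), and per the series' design text the data were refined in Expressionist; nothing further is stated. Each column of the deposited intensities has a median of 100, and no detection call or background is given with them, so probe sets could not be sorted by detection. Scaling to a common median makes every difference relative to the typical probe set.

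Arrays were assigned to organ and replicate by their titles. The replicate number pairs the arrays: the titles of 1 number share an experiment code across organs, and deviations from the organ means correlated at 0.197 between pancreas and stomach arrays of the same number across probe sets, and at 0.421 for those with a mean over 100. The main fit holds organ means alone and does not use this pairing. Its p-values rest on the spread between the 2 arrays of an organ, pooled over pancreas, stomach and liver and moderated across probe sets. A shift shared by the arrays of 1 isolation adds to that spread, and the fit with the replicate block takes it out.

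Control rows (120) were left out. Log2 of the deposited intensities was fitted in limma 3.58.1 under R 4.3.3: organ means on all 6 arrays, with liver for the shared spread alone, then the contrast of pancreas minus stomach, eBayes and Benjamini-Hochberg adjustment over 15491 probe sets, at a threshold of 0.05. Residual degrees of freedom were 3, and the prior degrees of freedom 2.14. The homeolog test fitted the log2 ratio of L to S per array in the same way. The scripts were tested on simulated data.

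Gene symbols came from the platform annotation: 9304 probe sets had 1 symbol, 195 had several and 5992 had none, and 9227 were found in the RefSeq gene table of assembly v10.1, which updated 2 symbols. For the 1293 genes with more than 1 probe set, the brightest by mean over the 6 arrays was used. No coordinates or sequences are printed, since none were given for these probe sets. The 35 gene lists, with 1462 measured genes, and the members of the comparison were chosen with earlier results of these data known; 20 list entries whose synonym pointed to a different gene were dropped. Lists are described by counts and medians, with no set test.

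The rule for named genes took the 20 largest called differences per direction with 16 added to each intensity and no overlap between organs, up to 4 called members per direction of each list (if none, the 2 with the highest mean), the markers of pancreas and stomach, the 5 largest called homeolog gaps per direction and the pairs called in opposite directions: 184 genes, of which 167 were called. Genes named beyond it complete a short count, a pathway or a copy pair, and their values were known when they were chosen. Folds are ratios of geometric means. Alternatives were the isolation as a block, the 4 arrays alone, quantile normalization, a test of the brighter probe sets alone (mean at or above the 40th percentile), 16 added, an intensity trend, no moderation, each array left out, and other probe sets of a gene.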

Additional observations from a re-analysis of the deposited data

How the results depend on the processing

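The counts of called probe sets depend on how the spread is estimated. The main counts were 556 higher in pancreas and 680 in stomach, and 295 and 485 by over 3-fold. They were 289 and 442 on the pancreas and stomach arrays alone, 1207 and 911 among the 9295 probe sets at or above the 40th percentile, 1047 and 1082 with 16 added, and 1223 and 1050 with an intensity trend. With no moderation they were 22 and 9, and 10 and 5 by over 3-fold, while 2138 and 1553 had an unadjusted p under 0.05. Leaving out 1 array gave from 0 to 289 in pancreas and 0 to 442 in stomach, and by over 3-fold 0 to 244 and 0 to 396; each 0 came without pancreas replicate 1 or stomach replicate 1. The 30 homeolog pairs became 60 of 665 above the percentile, 74 with 16 added and 67 with a trend, 0 on the pancreas and stomach arrays alone, and 0 without any 1 array.

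With the replicate block the counts were 618 and 671, and 465 and 555 of the main calls were among them; the homeolog pairs became 5. Of the 167 called genes named by the rule, 147 kept their call with the block and 20 lost it. Quantile normalization ended 4 of these calls, the trend 3 and the addition of 16 ended 1, but 51 were lost on the pancreas and stomach arrays alone, 161 with no moderation, 111 without pancreas replicate 2, 118 without stomach replicate 2, and all 167 without pancreas replicate 1 or stomach replicate 1. Of the 144 that passed the percentile filter 144 were called there. A single array left out moved the fold of 21 of them by over 1.5 times for either pancreas array and of 6 for either stomach array, and the addition of 16 moved 39. Over all called genes there were 127 other probe sets, of which 120 had the same sign, 49 were called the same way, 7 had the opposite sign without a call and 0 were called the opposite way. Of the 35 that belong to the called genes named, 14 were called the same way, 18 had the same sign without a call, and 3 had the opposite sign without a call: anxa5.S at -0.60, ckm.L at 0.34 and nr5a2.S at -0.053. The cause of these shifts was not tested.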

Other observations

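Of the called probe sets, 167 higher in pancreas and 252 higher in stomach carried no gene symbol and are not described. Of the called genes, 89 higher in pancreas and 133 higher in stomach were on one of the gene lists.

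Leading stomach genes outside the groups described were the actin-binding villin relative vill.S, with 14.8 and 71.3 in pancreas against 1656 and 1360 in stomach, and the reductase genes dhrs11.S, with 74.5 and 291 against 3515 and 3593, and akr1c8p.S, with 49.9 and 97.7 against 2797 and 1737. None overlapped between the organs, which the rule for choosing them required. The fold of vill.S was 21.1 without pancreas replicate 1 and 101 without pancreas replicate 2, and that of dhrs11.S was 12.2 and 47.7. With 16 added the fold of vill.S was 29.3 in place of 46.2.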
